A study of Mus musculus with 2 samples.

Results

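Klf4 occupancy was examined at 7 genes that mark pericytes and other mural cells: Pdgfrb, Cspg4, Notch3, Rgs5, Kcnj8, Mcam and Des. The peaks came from Klf4 chromatin immunoprecipitation with sequencing (ChIP-seq) of mouse mesenteric arcades, the branching small vessels that supply the gut. A fixed window of mm9 sequence was taken for each gene, between 30 and 80 kb long and 370 kb in all, and a peak was counted where its midpoint fell inside. Of the 7313 peaks in the list, 1 lay in these windows, at Pdgfrb. The other 6 windows held no peak.

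The series has 2 libraries from C57BL/6 mice on chow diet, 1 with the genotype eYFP+/+ Klf4WT/WT and 1 with eYFP+/+ Klf4delta/delta, described as a deletion in smooth muscle cells (SMC). Both carry the eYFP allele. The sources used here do not give the driver of the deletion, the age of the mice or the number of mice per library. Chromatin came from the stromal vascular fraction, described as a mixture that includes smooth muscle cells, epithelial cells and macrophages. The single peak list names no genotype, so the libraries were not compared, no value has a replicate, and no test between genes or genotypes was made. Whether the peaks in the list come from 1 library or from both is not stated. Occupancy is not expression, so the presence of mural cells in the tissue could not be checked from these data, and no peak is tied to a cell type.

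Pericytes are contractile cells wrapped around capillaries, and together with vascular smooth muscle cells they form the mural layer of vessels. Endothelial cells recruit them through platelet-derived growth factor B, which acts on the receptor encoded by Pdgfrb, and Notch signalling between endothelium and mural cells maintains them. Klf4 is a zinc-finger transcription factor that binds GC-rich and CACCC-type elements and is known for its part in the change of smooth muscle cells away from the contractile state.

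Promoter sequence was available for 6 of the 7 genes, from RefSeq in build GRCm38.p6, whose coordinates do not correspond to the mm9 positions of the peaks. The missing promoter was that of Pdgfrb, the only member with a peak. All 6 promoters searched therefore belong to genes whose windows held no peak. In the 250 bases before each start, 3 short motifs were searched on both strands. The CACCC box (CACCC, or GGGTG on the other strand) occurred at 2 of the 6 genes, Kcnj8 and Des, against 52% of 32851 promoters. The GC box (GGGCGG, or CCGCCC) occurred at 4, namely Cspg4, Notch3, Mcam and Des, against 32.7% of promoters. These 4 were 60.4% to 73.6% G or C, against a median of 52.4% over all promoters. Rgs5 and Kcnj8, without a GC box, were at 53.6% and 49.2%. The comparison promoters were not selected by gene type or base composition, so the shares do not set mural markers apart. The longer Klf4-type element GGGNGTGG, or CCACNCCC, which overlaps the CACCC box in some of its forms, occurred at 0 of the 6, against 15.9% of promoters.

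The 3 promoters printed here, chosen after the matches were counted, show the range of letters found at genes whose windows held no peak: the one with the most CACCC boxes, the one with the most GC boxes and the one with no match. Capitals mark the matched letters.
Kcnj8, chr6:142571615-142571864, minus strand: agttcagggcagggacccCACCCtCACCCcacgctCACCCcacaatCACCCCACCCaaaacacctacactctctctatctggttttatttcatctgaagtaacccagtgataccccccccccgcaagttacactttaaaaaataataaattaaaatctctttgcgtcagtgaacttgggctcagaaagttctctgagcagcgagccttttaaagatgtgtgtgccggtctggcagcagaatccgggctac
Mcam, chr9:44134408-44134657, plus strand: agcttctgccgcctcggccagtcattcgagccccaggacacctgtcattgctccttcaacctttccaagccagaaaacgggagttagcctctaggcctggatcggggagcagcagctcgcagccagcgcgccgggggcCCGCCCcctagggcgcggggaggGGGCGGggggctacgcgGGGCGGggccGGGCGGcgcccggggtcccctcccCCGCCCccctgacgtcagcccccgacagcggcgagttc
Rgs5, chr1:169655251-169655500, plus strand: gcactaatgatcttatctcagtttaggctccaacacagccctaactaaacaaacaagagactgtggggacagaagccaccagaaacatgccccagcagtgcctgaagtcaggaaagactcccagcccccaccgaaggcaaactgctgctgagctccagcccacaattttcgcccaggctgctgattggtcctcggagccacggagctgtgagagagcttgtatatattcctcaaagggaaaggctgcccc

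The Kcnj8 promoter held 5 CACCC boxes, all in the part farthest from the start and all reading CACCC on the gene's strand, a number that 0.667% of all promoters reached. The Mcam promoter held 5 GC boxes, which 1.93% of promoters reached, and 73.6% of its bases were G or C, against a median of 52.4% over all promoters. A match is a description of letters and does not show a binding site. Sequence under the peaks themselves was not used here.

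The receptor gene Pdgfrb was the member with a peak. Its window on chromosome 18 ran from 61190000 to 61250000, and the peak lay at 61205327 to 61206022, with its midpoint 15.7 kb from the window's start. The peak was 696 bp wide and had a score of 113.61. The score is assigned per peak by the authors' peak caller and is used here only to rank peaks within the list. Over the whole list the median score was 112.02, with quartiles of 82.28 and 161.17, so the Pdgfrb peak stood in the middle, at or above 51.9% of all peaks. Its width was below the list's median of 913 bp and just under the lower quartile of 698 bp. Per kb of width its score was 163.2, at or above 72.3% of peaks. Among the 211 peaks of chromosome 18 it ranked 110 by score.

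The peak closest to the Pdgfrb window without being counted in it was 1150 bp wide with a score of 72.87, at 61265518 to 61266667, 15.5 kb past the window's end. That score exceeded or equalled 15.0% of the list. On the other side the nearest peak, at 61007898 to 61008696, was 181.3 kb away and scored 113.83. In the order of protein-coding genes in GRCm38.p6, Csf1r, the receptor of macrophage colony-stimulating factor, follows Pdgfrb. Since gene models of mm9 were not used here, neither peak was placed on an exon, intron or promoter of Pdgfrb or Csf1r. The labels name macrophages in the tissue, and their part in the Pdgfrb peak was not tested. Within 500 kb of the Pdgfrb window, and counting the peak inside it, there were 8 peaks. That number was reached or exceeded in 11.2% of like stretches.

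**Figure D1:**
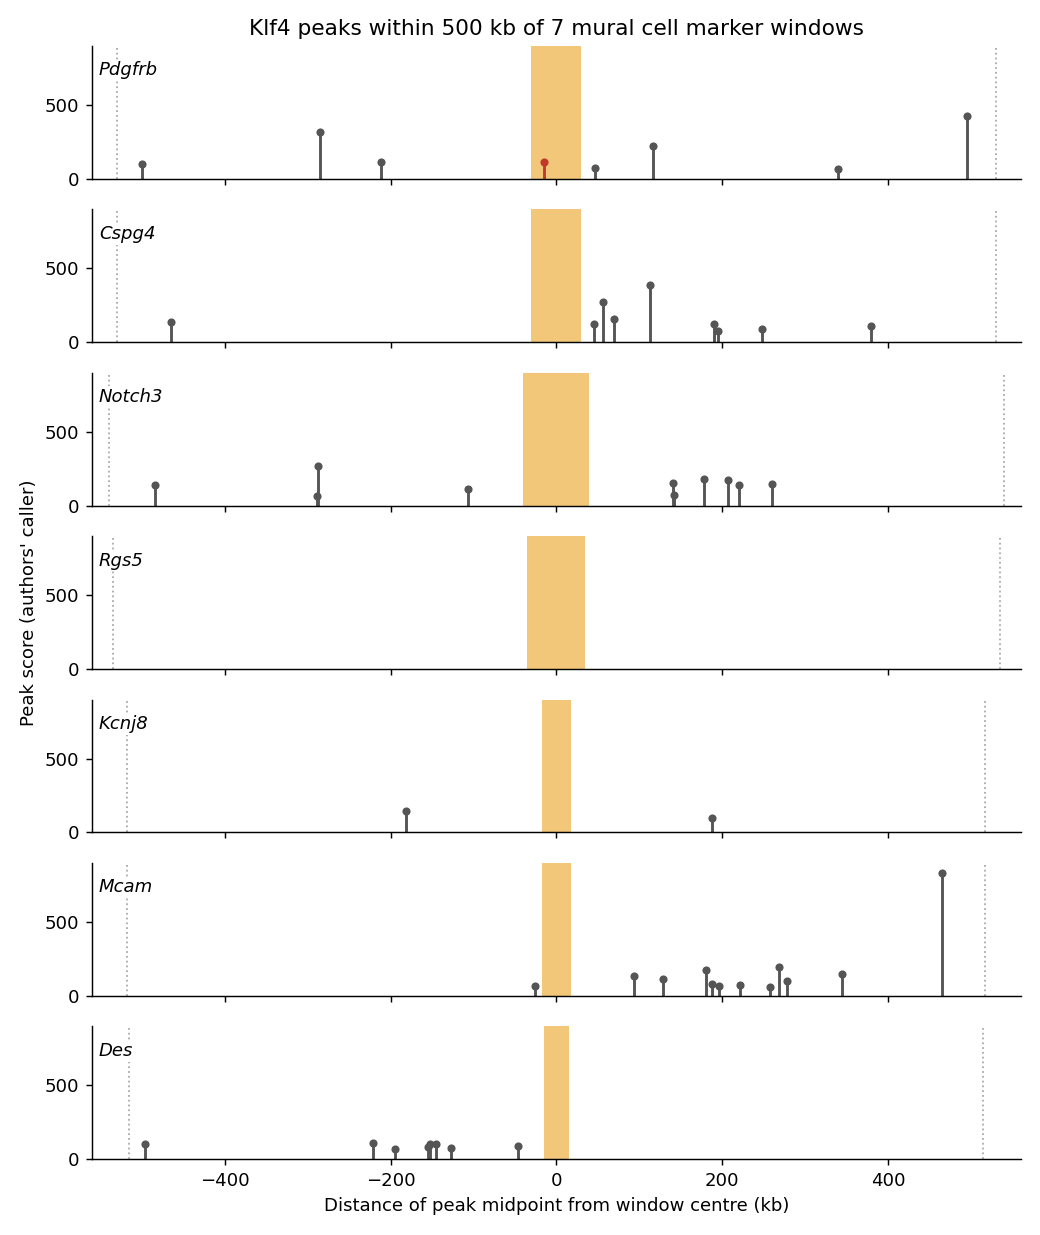
Each panel shows 1 marker window (shaded) and the Klf4 peaks up to 500 kb beyond its edges (dotted lines), with distance from the window's centre in kb on the horizontal axis and the peak score on the vertical axis. The red peak at Pdgfrb, with a score of 113.61, is the 1 peak inside a window, Rgs5 has no peak in the range shown, and the peaks near Des all lie on its left side.

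A peak in 1 of 7 windows was close to what windows of these lengths hold on average over the chromosomes. Tiled without overlap over the 20 chromosomes, 13.0% of 60 kb windows, the length used for Pdgfrb and Cspg4, held at least 1 peak. The share was 16.1% at 80 kb (Notch3), 14.6% at 70 kb (Rgs5), 8.22% at 35 kb (Kcnj8 and Mcam) and 7.18% at 30 kb (Des). The 7 shares sum to 0.803 windows, against 1 observed. The tiles cover sequence with and without genes, whereas each marker window was taken for a gene. Windows at other genes were not compared. Expressed as a rate, the marker windows held 2.70 peaks per Mb, with an exact Poisson 95% interval of 0.0684 to 15.1 that covers counting error only, against 2.86 per Mb over the chromosomes. The interval is wide because it rests on 1 peak, and it spans rates far below and far above that of the list. The list holds only peaks with a score of at least 60.01, and whether a window without a peak holds weaker binding cannot be read from it.

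Cspg4, which encodes the NG2 proteoglycan on the pericyte surface, had no peak in its window on chromosome 9 from 56700000 to 56760000. A group of 3 peaks followed the window's end. The first, at 56775174 to 56776402, began 15.2 kb past the end and scored 123.89. The other peaks scored 273.97 and 154.33, in that order, and 273.97 was at or above 94.9% of the list. All 3 scored above the Pdgfrb peak, and they lay within 50 kb of the window. Before the window the nearest peak was 434.1 kb away, at 56265039 to 56265897, with a score of 137.29. Peaks within 500 kb were uneven, 1 before and 8 after, and their number was reached or exceeded in 8.83% of like stretches. The peak-free stretch that held the Cspg4 window was 509.3 kb long, and stretches at least as long made up 73.5% of the length between peaks. Snx33 is the protein-coding gene that follows Cspg4 in GRCm38.p6, and the peaks were not assigned to a gene.

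Mcam, which encodes the adhesion molecule CD146 found on mural and endothelial cells, lay on the same chromosome in a window from 43930000 to 43965000. It had the nearest uncounted peak of all members, at 43921035 to 43921647, ending 8.35 kb before the window. That peak was weak, with a width of 613 bp and a score of 65.42, at or above 5.99% of the list. The next peak after the window was 75.8 kb away and scored 134.52. Mcam had the most peaks within 500 kb of any member, 12, of which 11 lay after the window. Such a number or more was found in 4.26% of stretches of the same length. The highest of the 12 scored 834.03, and it lay 465.5 kb from the window's centre.

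Notch3, the Notch receptor characteristic of mural cells, had the longest window, on chromosome 17 from 32240000 to 32320000, and no peak within 50 kb of it. The flanking peaks lay 66.1 kb before it, at 32173404 to 32173936 with a score of 113.45, and 100.2 kb after it, at 32420209 to 32421348 with a score of 152.5. The peak-free stretch around Notch3 was 246.3 kb, longer than 72.4% of gaps, and stretches at least as long made up 85.3% of the total length between peaks. Within 500 kb there were 10 peaks with a median score of 145.51, a number reached in 6.97% of like stretches.

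Rgs5 and Kcnj8, which are widely used to mark pericytes, were the members whose nearest peak, taken over both sides, was farthest from the window. Rgs5 encodes a regulator of G-protein signalling, and its window on chromosome 1 ran from 171570000 to 171640000. The nearest peak before it was 2245.8 kb away, with a score of 108.91, and the nearest after it 504.7 kb away, with a score of 240.83. No peak lay within 500 kb. The stretch without a peak was 2820.5 kb long, longer than 98.1% of the gaps between neighbouring peaks. Because long gaps take up much of the genome, stretches at least this long made up 27.6% of the total length between peaks. Kcnj8 encodes the pore-forming subunit of a vascular ATP-sensitive potassium channel. Its window on chromosome 6 ran from 142500000 to 142535000, and the nearest peaks lay 163.6 kb before and 170.1 kb after it, with scores of 142.98 and 98.52. These were the 2 peaks within 500 kb of Kcnj8, a number reached or exceeded in 51.8% of stretches of the same length. The peak-free stretch around Kcnj8 was 368.8 kb, and stretches at least as long made up 79.1% of the length between peaks, so its surroundings were ordinary for the list. Abcc9, which encodes the regulatory subunit of the same channel, is its next protein-coding gene in GRCm38.p6.

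Des encodes desmin, the intermediate filament protein of muscle and mural cells. Its window, the shortest, ran from 75345000 to 75375000 on chromosome 1, at the edge between a peak-bearing and a peak-free region. Within 500 kb there were 8 peaks, a number reached or exceeded in 10.0% of like stretches. All 8 lay before the window, and 0 lay after it. The nearest was 30.7 kb away, at 75312984 to 75314334, with a score of 90.74, and the next after the window was 2135.8 kb away with a score of 64.69. The 8 peaks were of low to middle rank, their median score being 95.77 and the highest 112.04. The stretch around Des, 2196.5 kb, was longer than 97.1% of gaps, and stretches at least as long made up 34.6% of the length between peaks.

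**Figure D2:**
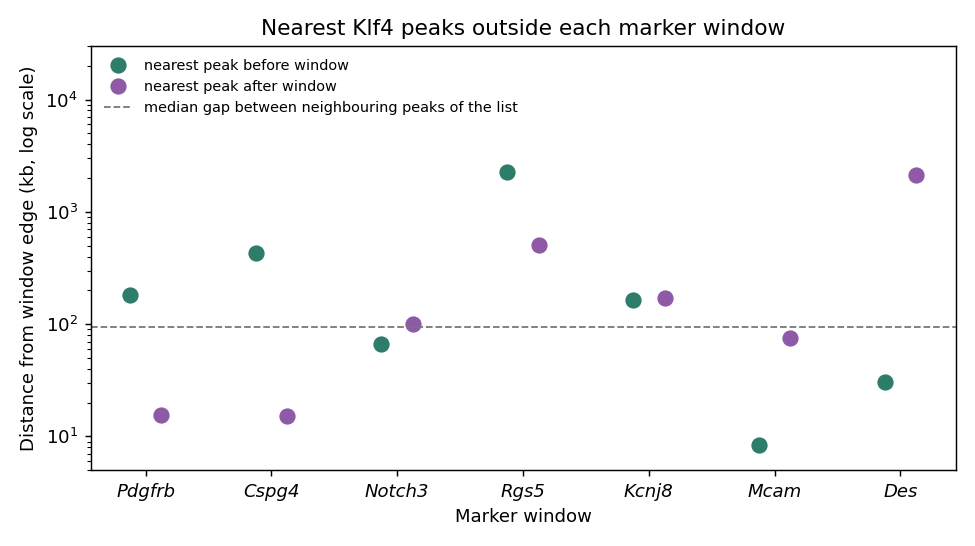
For each marker window the distance in kb (log scale) from its edges to the nearest Klf4 peak before it and after it is shown, with the median gap between neighbouring peaks, 94.1 kb, as a dashed line. Mcam, Pdgfrb and Cspg4 have a peak within 16 kb on one side, and Rgs5 has none within 500 kb on either side.

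Widening each window by 10 kb on each side placed a peak at 2 of the 7 genes, Pdgfrb and Mcam. The share of tiled windows with a peak was then 16.1% for Pdgfrb and Cspg4, 19.2% for Notch3, 17.6% for Rgs5, 12.0% for Kcnj8 and Mcam and 11.2% for Des. Widening by 50 kb on each side placed a peak at 4 of the 7 genes and 7 peaks in all. Cspg4 then had 3 peaks, Pdgfrb 2, Mcam 1 and Des 1, while Notch3, Rgs5 and Kcnj8 had 0. At these widened lengths a peak was held by 26.4% of tiled windows for Pdgfrb and Cspg4, 28.6% for Notch3, 27.3% for Rgs5, 23.5% for Kcnj8 and Mcam and 23.0% for Des. The 7 shares sum to 1.79 windows, against 4 observed. Within 500 kb the members had 49 peaks over 7.37 Mb, or 6.65 per Mb, against 2.86 per Mb over the chromosomes. These neighbourhoods ranged from 0 peaks (Rgs5) to 12 (Mcam). The 49 peaks had a median score of 113.45 and a median width of 910 bp, close to the list's 112.02 and 913 bp, and 11 of them (22.4%) were in the upper 25% of scores. Other genes lie in these stretches, peaks were not assigned to any of them, and gene density around the members was not compared with that of the genome.

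**Figure D3:**
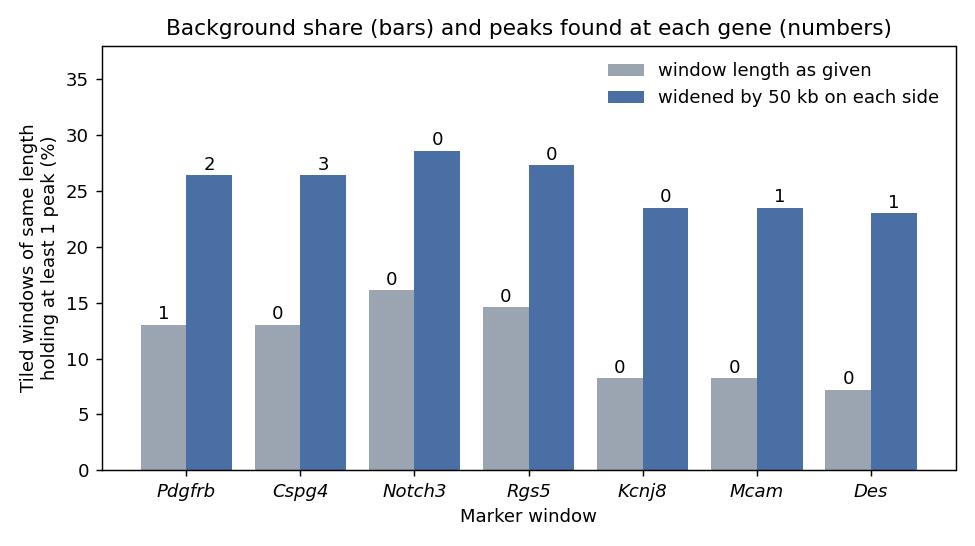
Bars give the percentage of tiled genomic windows that hold at least 1 Klf4 peak, for windows of the length used at each gene (grey) and of that length widened by 50 kb on each side (blue). Numbers above the bars are the peaks found at the gene, 1 in the Pdgfrb window and 0 in the others at the given length, and between 0 and 3 after widening.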

How the data were processed

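The series holds Klf4 ChIP-seq libraries of 2 genotypes, 1 each, and 1 deposited peak list with position, name and score. Which library or libraries gave the peaks, and whether 1 served as control for the other, is not stated. The prefix MACS in the peak names is the one record of the caller. Reads were handled with Bowtie and SAMtools on build mm9, per the submitters' processing notes. Read depth and the caller's version, threshold and control are not given. The score per peak is the authors' own value, and its scale is not stated in the deposited file.

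Starts were shifted by 1 base to 1-based coordinates. Peaks were assigned to the 7 windows by midpoint, and all genes, their window peaks and the nearest peaks on either side were named. Tiled windows lay between the first and last peak of each of 20 chromosomes, which held 7298 peaks. The window count was tested on simulated peaks planted inside the windows, with the other simulated peaks far outside them. Counting at window edges was therefore not tested. The members and lists were chosen with earlier results of these data known. Of the gene table (GRCm38.p6) only names and order were used, with 7 of 7 members matched. A list of 19 other mural genes was not analysed here, since an mm9 annotation was not used. Alternatives changed window edges, overlap rule, score threshold and merging. Computations ran in Python 3.11.15 with scipy 1.17.1, pandas 2.3.3 and numpy 2.4.6, and plots were drawn with matplotlib 3.10.9.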

Additional observations from a re-analysis of the deposited data

How the results depend on the processing

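The number of marker windows with a peak, 1 of 7, and the number of peaks in them, 1, were both 1 when any overlap of at least 1 base was counted, when windows were narrowed by 5 kb on each side and when only the upper 50% of scores was used. The peak number was also 1 when peaks under 1 kb apart were merged. Windows widened by 10 kb on each side gave 2 windows with a peak and 2 peaks, the added one at Mcam, against a background of 11.2% to 19.2% of tiled windows. Windows widened by 50 kb on each side gave 4 windows with a peak and 7 peaks, against a background of 23.0% to 28.6% of tiled windows. The upper 25% of scores gave 0 windows and 0 peaks, by the score of the Pdgfrb peak. That score, 113.61, lies close to the median of 112.02, so its place among the upper 50% rests on a small margin. Its percentile, 51.9 in the whole list, was 72.3 for the score per kb of width and 48.3 among peaks of chromosome 18. Taking the highest peak of each window returned the same peak, so its percentile of 51.9 could not change. The width of the Pdgfrb peak, 696 bp, was the same after merging, because no other peak lay under 1 kb from it. No paired analysis was possible because the list tells no genotypes apart and does not state which library or libraries gave it. The genotype comparison was not run for the same reason. Read depth is unknown, so an empty window is no evidence that Klf4 was absent there.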
